A study of Mus musculus with 6 samples.

Results

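Ribosomal protein genes encode the structural proteins of the 2 subunits of the cytoplasmic ribosome. Genes were taken from the GENCODE M21 annotation of the mouse genome GRCm38 when their symbol was Rpl or Rps followed by a number and optional letters, or was Rplp0, Rplp1, Rplp2 or Rpsa. The ribosomal S6 kinases, the pseudogenes and Rps19bp1, which encodes a binding partner of a ribosomal protein, were left out. This gave 85 of 21938 protein-coding genes on chromosomes 1 to 19, X and Y. They comprised 43 large subunit genes, 31 small subunit genes, the 3 stalk genes Rplp0, Rplp1 and Rplp2, and 8 paralogs such as Rpl22l1 and Rps27l.

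Open chromatin was measured by ATAC-seq, in which Tn5 transposase cuts and tags accessible DNA, in intestinal crypts from WT and Arid3a cKO mice, with 3 samples per genotype. Arid3a encodes a DNA-binding protein of the AT-rich interaction domain family. In the cKO animals (VillinCre-ERT2+/-; Arid3a fl/fl) floxed Arid3a was deleted by a tamoxifen-inducible Cre driven from the Villin promoter, which is active in intestinal epithelium, so other cells in the preparation kept the gene. The WT animals are labelled Arid3a WT, and whether they carried the Cre is not given in the sources used here. Both genotypes received tamoxifen on 3 consecutive days, and crypts were collected 1 month after the first injection. The labels number the samples and do not tie them to animals, so p-values measure the spread between these samples.

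Ribosomal protein genes are expressed in nearly every cell, and their transcripts are among the most abundant in dividing cells such as those of the crypt. Many of them start within a stretch of pyrimidines, the terminal oligopyrimidine (TOP) tract, through which mTOR signalling controls their translation. Their promoters lie mostly in CpG-rich DNA, and they are open in most tissues.

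Each sample has a list of peaks called by MACS2, with 40492 to 58297 peaks on the chromosomes used. A gene's promoter peak was the peak of highest fold enrichment whose summit lay from 1000 bp upstream to 100 bp downstream of one of its annotated transcription start sites (TSSs). The fold enrichment is the pileup at the summit over the local background of the same library, so it was turned into a percentile within its own list, where 100 is the highest peak of that list. Epithelial promoters were open: Cdh1, Vil1, Cdx2, Hnf4a and Elf3 had a promoter peak in 6 lists, Epcam in 5, Krt18 in 4 and Krt8 in 3. Of the crypt base stem cell genes, Olfm4, Axin2 and Smoc2 had 1 in 6 lists, Ascl2 and Sox9 in 4 and Lgr5 in 2. Of the leukocyte genes, Ptprc, Cd3e, Cd79a, Itgam and Laptm5 had none in any list, and Cd68 and Coro1a had 1 in all 6 lists. Of 8 mesenchymal and endothelial genes, Col1a1 and Pdgfra had a peak in 6 lists, Vim and Kdr in 2, and the other 4 in none. The part of these cells in the results was not tested. Arid3a itself had a promoter peak in all 6 lists, which does not check the genotype, since a promoter can stay open beside a deleted exon.

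Promoter sequences are given first to show what the peaks covered. RefSeq promoters (GRCm38.p6, 250 bases before to 50 after each start) matched 64 of the 85 genes, 55 of them among the 73 genes with a promoter peak in every list. Shown are the 100 bases before the start and the first 20 after it, on the gene's strand. The genes are some that ranked high (Rpl27, Rpl22l1, Rps6), some that ranked low (Rpl35, Rps18, Rpl28) and Rpl11. The mean percentile of Rpl11 was higher in cKO, but the groups overlapped and it passed no adjusted threshold. Capitals mark CCGGAAG, TCGCGAGA and TATAAA on either strand, and any run of at least 8 C or T within 20 bases of the start.
Rpl27, chr11:101442145-101442264, + strand: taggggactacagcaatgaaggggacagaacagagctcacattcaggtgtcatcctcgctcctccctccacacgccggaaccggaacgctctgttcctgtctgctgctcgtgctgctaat
Rpl22l1, chr3:28805408-28805527, + strand: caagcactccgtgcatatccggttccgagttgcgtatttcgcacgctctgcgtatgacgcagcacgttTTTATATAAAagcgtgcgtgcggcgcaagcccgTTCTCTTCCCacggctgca
Rps6, chr4:86857348-86857467, - strand: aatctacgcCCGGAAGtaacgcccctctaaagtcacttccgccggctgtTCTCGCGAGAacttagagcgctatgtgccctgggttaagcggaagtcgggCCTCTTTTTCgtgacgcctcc
Rpl35, chr2:39005112-39005231, - strand: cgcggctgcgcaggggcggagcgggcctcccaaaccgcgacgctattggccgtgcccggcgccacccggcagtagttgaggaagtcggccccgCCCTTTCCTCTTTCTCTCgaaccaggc
Rps18, chr17:33955646-33955765, - strand: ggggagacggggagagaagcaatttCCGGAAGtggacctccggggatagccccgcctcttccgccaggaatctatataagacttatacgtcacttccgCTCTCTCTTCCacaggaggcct
Rpl28, chr7:4792865-4792984, + strand: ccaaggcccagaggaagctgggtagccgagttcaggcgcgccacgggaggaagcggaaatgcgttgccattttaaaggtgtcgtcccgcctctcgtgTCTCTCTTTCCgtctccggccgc
Rpl11, chr4:136053374-136053493, - strand: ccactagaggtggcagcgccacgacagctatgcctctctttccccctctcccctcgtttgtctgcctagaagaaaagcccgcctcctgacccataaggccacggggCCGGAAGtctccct

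In these stretches the pyrimidine run covered or touched the start of 5 of the 7 genes, from 10 bases in Rpl22l1 and Rps6 to 18 in Rpl35. Of these genes Rpl22l1 alone had the letters TATAAA of a TATA box in this stretch, 28 bases before its start. Over the 55 promoters with sequence, a run of at least 8 pyrimidines within 20 bases of the start was found in 24, or 43.6%, beside 14.6% of the 7341 promoters with a peak in every list and a RefSeq sequence. The ETS letters CCGGAAG were in 21, or 38.2%, beside 1540 of the 7341. TCGCGAGA was in 10, or 18.2%, beside 2.86%.

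Of the 13 motifs searched on both strands of the 300 bases, the Sp1 letters GGGCGG were in 60.0% of the 55 promoters beside 70.9% of the 7341, the Klf letters CCACGCCC in 5.45% beside 12.4%, and CACGTG in 7.27% beside 10.8%. TATAAA was in 10.9% beside 5.78%, AAGATGGC of YY1 in 9.09% beside 5.29%, and ATTAAA, letters that ARID3 proteins can bind, in 12.7% beside 6.01%. CCAAT was in 36.4% beside 40.8%, GCGCATGC of NRF1 in 5.45% beside 6.10%, and TGACTCA of AP-1 in 3.64% beside 3.24%. CAAAGTCCA of HNF4 was in 2 promoters, Rpl11 and Rpl22l1 (3.64% beside 0.531%), and TTTATGG of CDX in 0 (beside 1.62%). These shares were not tested, and a match describes letters only. The median GC content was 58.7% beside 62.3%, and the median observed over expected CpG was 0.870 beside 0.803.

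A promoter peak was present in all 6 lists for 73 of the 85 genes, or 85.9%, beside 9777 of 21938 genes, or 44.6%. The count per list was 76, 80 and 76 in WT and 78, 77 and 76 in cKO, so the genotypes differed by less than the spread between lists. All 3 stalk genes and 30 of 31 small subunit genes were in every list, as were 36 of 43 large subunit genes. Of the 8 paralogs, Rpl22l1, Rpl36al, Rpl7l1 and Rps27l were in every list. Rpl10l, Rpl39l, Rpl3l and Rps27rt had no peak over any TSS in any list. Rpl3l is the muscle paralog of Rpl3, Rpl10l and Rpl39l are known from testis, and Rps27rt is a copy of Rps27.

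The other 8 genes had a peak over a TSS in every list, but its summit fell outside the window in some or all of them. Rpl38 passed in 0 lists, because its summit lay 184 to 274 bp past the nearest TSS in all 6. Rps3a1 passed only in WT 2, where the summit was 51 bp past the TSS, and lay at 128 to 131 bp in the other 5 lists. Rps3a1 ranked high in all of them, from the 94.2nd to the 97.4th percentile.
Rpl41 passed in WT 2 and cKO 2, where its peak was 650 and 713 bp wide and its summit 71 bp past the TSS. In the other 4 lists the peak over that TSS was 2318 to 2436 bp wide. Its summit in those lists lay at least 1249 bp downstream of the nearest TSS, past the annotated end of the gene. Rpl7 passed in 3 lists, with summits from -773 to -253 bp, and lay at -1101 or -1097 bp in the other 3. Rpl4 passed in 4, with summits from -573 to -501 bp, and lay at 174 and 175 bp in the other 2. Rpl19, Rpl36 and Rpl17 each missed 1 list, with a summit at 197 bp in WT 3, at 188 bp in cKO 3 and at 174 bp in cKO 2. The lists missed were of both genotypes. In each of them a peak still lay over a TSS, with its summit outside the window. By any base of a peak over a TSS, 81 of 85 genes were in every list.

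**Figure D1:**
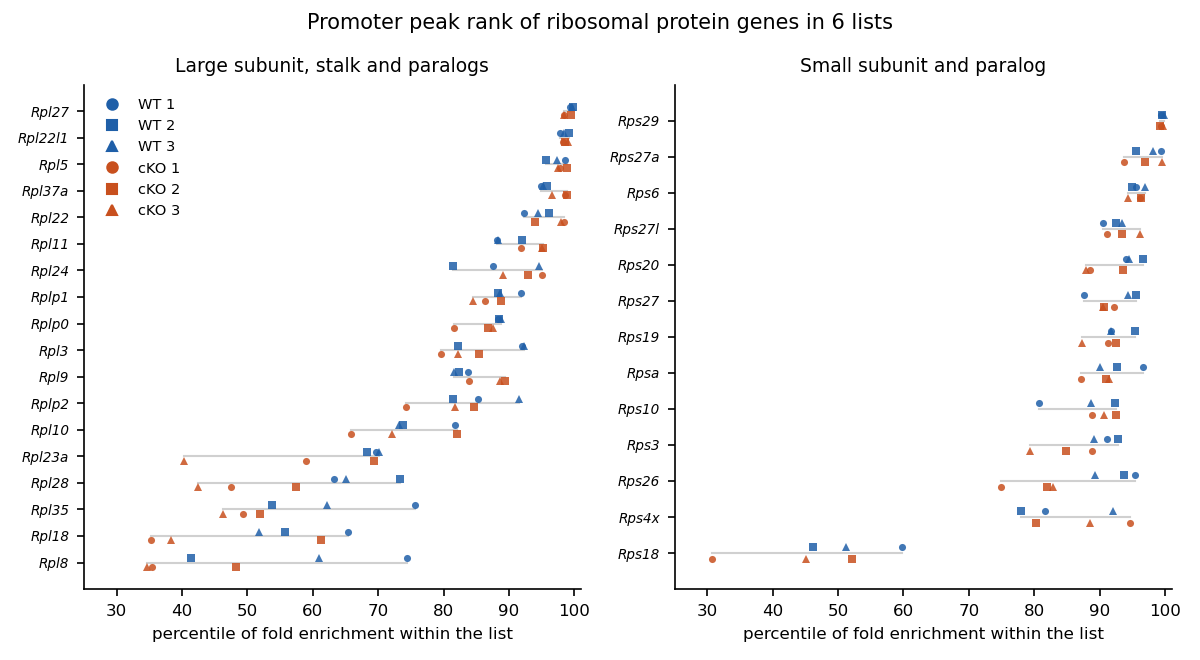
Percentile of the promoter peak's fold enrichment within its list (x axis) for the ribosomal protein genes described by rank in the text, ordered by mean; blue marks are the 3 WT lists and orange marks the 3 cKO lists. Genes at the top were tightly placed near 100, and Rpl8, Rpl18 and Rps18 at the bottom spread between 30.7 and 74.5.

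Although open in nearly every list, the 73 promoters covered a broad range of ranks. Their median percentile was 87.6, 88.7 and 89.2 in the WT lists and 85.4, 87.4 and 87.0 in the cKO lists. Over all 9777 promoters these medians were 85.5, 87.3 and 87.7 in WT and 85.3, 86.7 and 84.1 in cKO, so as a group these promoters were not far from the typical promoter with a peak in every list. Between 25 and 31 of them were above the 90th percentile in each list.

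The highest was Rps29, a zinc-binding small subunit protein, at 99.3, 99.5 and 99.8 in WT and 99.4, 99.3 and 99.6 in cKO. Rpl27 of the large subunit was at 99.3, 99.8 and 99.7 in WT and 98.4, 99.4 and 98.4 in cKO. Rpl22l1, the paralog of the RNA-binding protein Rpl22, was at 97.8, 99.2 and 98.4 in WT and 98.2, 98.5 and 99.0 in cKO. None of these separated the genotypes. Rpl5, which with Rpl11 forms the particle that restrains Mdm2, had means of 97.2 ± 1.49 (SD, n = 3) in WT and 98.0 ± 0.730 in cKO.

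The lowest mean belonged to Rps18, a small subunit head protein, at 59.8, 46.1 and 51.3 in WT and 30.7, 52.1 and 45.0 in cKO. Rpl8, at the peptidyl transferase centre, was at 74.5, 41.3 and 60.9 in WT and 35.4, 48.3 and 34.6 in cKO. In both genes cKO 2 lay within the WT range while cKO 1 and cKO 3 were below it. Rpl18 had means of 57.6 ± 6.95 in WT and 44.9 ± 14.2 in cKO. Rpl35, which sits near the exit of the nascent chain tunnel, had means of 63.9 ± 11.0 and 49.2 ± 2.78.

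A low percentile did not mean a weak summit. Rpl18 had pileups at its summit of 151, 250 and 318 in WT and 400, 206 and 288 in cKO, the highest value of the 73 genes in WT 1 and cKO 2. Its local background was also high, at 22.2, 36.0 and 49.7 in WT and 77.7, 28.6 and 55.0 in cKO. Rps29, at the top by percentile, had pileups of 119, 225 and 317 in WT and 400, 185 and 293 in cKO over a background of 7.30 to 22.8. The pair had like pileups over unlike backgrounds, and the fold was 5.10 to 6.98 for Rpl18 and 14.5 to 20.4 for Rps29.

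The genotype comparison of ranks asks whether loss of Arid3a moved these promoters within the accessible genome. With limma over all 9777 promoters, 0 had an adjusted p under 0.05 (0% of promoters), and 600 had an unadjusted p under 0.05. Of the 73 ribosomal protein promoters 0 were called, and their lowest adjusted p was 0.650 by limma. At an unadjusted p under 0.05 there were 5, of which 4 were lower in cKO and 1 was higher. A limma fit of the summit pileup in place of the rank called 3 of 9777 promoters and 0 of the 73.

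The median difference (cKO minus WT) of the 73 promoters was -2.68 percentile points, beside -1.48 over all promoters, and 53 of 73 were below 0 (72.6%, beside 64.5% of all). The 3 WT values did not overlap the 3 cKO values, with cKO lower, in 9 genes (12.3%, beside 9.66% of all promoters), and with cKO higher in 2 genes (2.74%, beside 2.89%). Both shares are near the background. The median was -1.55 points without cKO 1 (beside -1.26 over all promoters) and -4.58 points with lists of equal length (beside -2.89). It was 0.31 points when peaks were ranked by −log10 q in place of fold (beside 0.52). Without WT 1 it was -1.96 points beside -1.99, with 71.2% below 0 beside 72.9%. The gap between these genes and all promoters was thus absent without WT 1.

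The most negative differences in mean percentile were in genes that ranked low. Rpl8 differed by -19.5 points (SE 9.18, limma adjusted p = 0.650), with the groups overlapping, and by -11.7 points without WT 1 and -28.3 points without WT 2. Rpl28, a large subunit protein, was at 63.3, 73.3 and 65.0 in WT and 47.5, 57.4 and 42.5 in cKO, so every cKO list was below every WT list, and it differed by -18.1 points (SE 6.88, limma adjusted p = 0.650). Rpl35 differed by -14.7 points, and by -8.81 points without WT 1. Rpl23a, a docking site for the signal recognition particle, was at 69.7, 68.3 and 70.1 in WT and 59.0, 69.4 and 40.3 in cKO. For Rpl23a the difference of -13.1 points rested on cKO 1 and cKO 3, since cKO 2 lay among the WT values. It was -5.14 points without cKO 3, -19.7 points without cKO 2 and -1.87 points when peaks were ranked by −log10 q.

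Rps26, Rpl28 and Rps20 were among the genes below the unadjusted threshold with cKO lower. Rps26, at the mRNA exit channel of the small subunit, was at 95.4, 93.7 and 89.3 in WT and 74.9, 82.0 and 82.9 in cKO, without overlap. Its difference was -12.9 points (SE 3.65, unadjusted p = 0.00470, limma adjusted p = 0.650). Rps20, a small subunit head protein, was at 94.1, 96.6 and 94.6 in WT and 88.5, 93.6 and 88.0 in cKO. None of them passed the adjusted threshold over all promoters.

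By percentile of the whole list, the positive differences were smaller. Rpl9, a large subunit protein whose promoter peak is also that of Lias, was at 83.8, 82.3 and 81.5 in WT and 83.9, 89.3 and 88.6 in cKO, without overlap and with a difference of 4.73 points (SE 3.56, limma adjusted p = 0.669). Rpl11 was at 88.2, 92.0 and 88.3 in WT and 91.8, 95.3 and 95.0 in cKO, where cKO 1 lay just under WT 2, and differed by 4.50 points (SE 2.22, limma adjusted p = 0.650). Rpl24, a protein of the bridge between the subunits, differed by 4.45 points, Rps4x by 3.90 and Rps10 by 3.39, all with overlapping groups. These 3 values rested on single lists: leaving out 1 list moved Rpl24 from 1.23 (without WT 2) to 7.82 (without WT 3), Rps4x from 0.48 (without cKO 1) to 7.96 (without WT 3) and Rps10 from 0.14 (without WT 1) to 5.96 (without WT 2). Rpl37a, the gene with cKO higher at an unadjusted p under 0.05, was at 94.9, 95.8 and 95.2 in WT and 98.6, 98.8 and 96.5 in cKO. The order of rises and falls depended on the scale. Ranked among the promoter peaks tested, Rpl9, Rpl11 and Rpl24 differed by 15.8, 17.5 and 15.0 points. On that ranking Rpl8, Rpl28, Rpl35 and Rpl23a differed by -8.92, -8.77, -7.76 and -5.69 points. On centred log2 fold the falls of Rpl28 (-0.27) and Rpl8 (-0.26) were larger than the rise of Rpl9 (0.19). The cause was not tested.

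**Figure D2:**
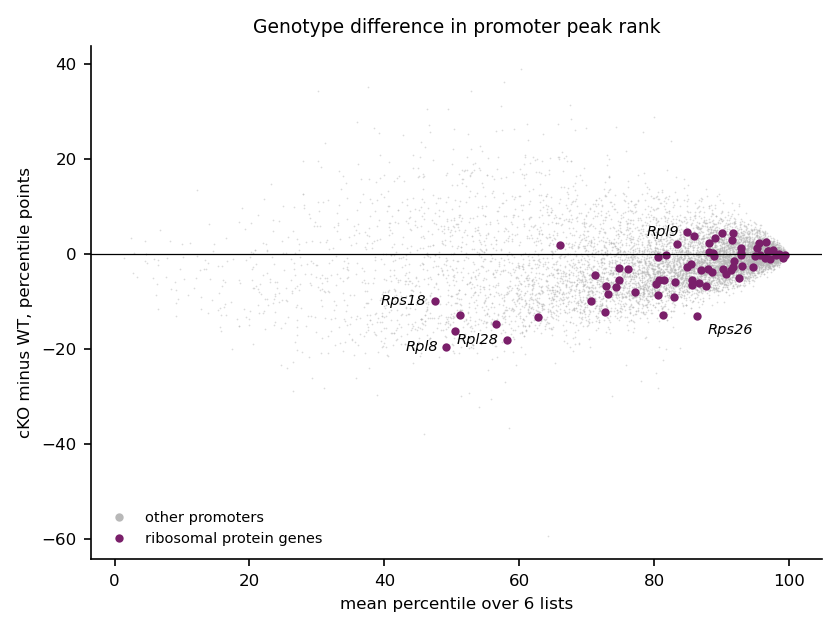
Difference in mean percentile, cKO minus WT (y axis, percentile points), against the mean percentile over 6 lists (x axis) for 73 ribosomal protein promoters (purple) and the other promoters tested (grey). The most negative differences, Rpl8 and Rpl28 among them, were in ribosomal protein promoters of low mean percentile.

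Among the 73 promoters, Spearman's rho between the difference and the mean percentile was 0.66, beside 0.30 over all 9777. The rho between the difference and the mean local background was -0.53, beside -0.61 over all. The points share the same 6 libraries and are not independent, so these are descriptions. Whether the rho of 0.66 depends on the percentile scale was not tested. The rank is built from the fold, and the local background differed between lists: its median over the 73 promoters was 6.67, 8.62 and 11.4 in WT and 17.2, 7.26 and 13.6 in cKO. The median pileup at their summits was 79, 118 and 152 in WT and 205, 96 and 141 in cKO. The lowest values of Rps18 and Rpl8 were in cKO 1 or cKO 3, the lists with the highest background, and the part of depth in the ranks was not tested.

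Of the genes with known roles in ribosome assembly and signalling, none passed the adjusted threshold. Rps6, phosphorylated downstream of mTOR, was at 95.6, 94.9 and 96.9 in WT and 96.2, 96.3 and 94.3 in cKO, with the groups overlapping. Rps19, mutated in Diamond-Blackfan anaemia, was at 91.8, 95.5 and 91.8 in WT and 91.3, 92.4 and 87.4 in cKO. Rps3, at the mRNA entry channel, was at 91.1, 92.8 and 89.2 in WT and 88.8, 84.9 and 79.3 in cKO, below WT in every list. That difference was -6.68 points (SE 3.37, limma adjusted p = 0.650).
Rpsa, which is also the laminin receptor precursor, differed by -3.29 points (SE 2.48). Rpl10, needed for the last step of large subunit maturation, differed by -2.90 (SE 5.68), and Rpl3, at the peptidyl transferase centre, by -6.47 (SE 3.97). Rpl22 differed by 2.44 points (SE 1.62) and its paralog Rpl22l1 by 0.10 (SE 0.812). Rps27 differed by -1.35 points (SE 2.49) and its paralog Rps27l, a p53 target, by 1.42 (SE 2.00). Each of these differences was less than 3 times its SE, and the groups overlapped in all but Rps3.

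The 3 stalk genes encode the proteins that recruit elongation factors to the ribosome, and none of their promoters passed the test. Rplp0, the base of the stalk, was at 88.3, 88.5 and 88.9 in WT and 81.5, 86.7 and 87.5 in cKO, without overlap, and differed by -3.28 points (SE 3.23, limma adjusted p = 0.714). Rplp1 differed by -3.03 points (SE 2.98) and Rplp2 by -5.91 (SE 4.49), both with overlapping groups. The median over large subunit genes was -2.79 points and over small subunit genes -2.98.

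Summit pileups were recovered as whole numbers, since the fold and −log10 p columns of MACS2 together fix the pileup and the background. A whole pileup was found for 100% of the promoter peaks, within a relative tolerance of 0.0001 on −log10 p. The pileup counts the reads or read pairs that cover 1 base, which of them is not given in the sources used here, and it does not depend on the local background. On log2 pileup centred on the median of all promoters in each list, the median difference of the 73 promoters was 0.004, beside -0.009 over all. Of the 73, 38 were above 0 and 35 below 0 (47.9% below, beside 52.5% of all). The limma fit gave 3 of 9777 promoters an adjusted p under 0.05 (499 unadjusted). Of the 73, 0 passed, 3 had an unadjusted p under 0.05 (Rps26 and Rpl34 among them), and the lowest limma adjusted p was 0.950.

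Rps26 had the most negative difference, of -0.33 (SE 0.123) on the log2 scale, with pileups of 77, 112 and 122 in WT and 141, 67 and 109 in cKO before centring. Its difference was negative by rank and by pileup, and passed the adjusted threshold in neither. Rpl24 had the most positive difference, of 0.30 (SE 0.152), with 51, 57 and 100 in WT and 151, 70 and 100 in cKO. For Rps4x, whose rank was 3.90 points higher, the pileup difference was near 0, at -0.0002 (SE 0.189). The local background, centred in the same way, had a median log2 difference of 0.06, beside -0.0002 over all promoters. Its 10th to 90th percentiles were -0.05 to 0.12, beside -0.22 to 0.12 over all. The centred background was higher in cKO in 59 of 73 genes. Over all promoters its median difference was just below 0, so no majority of them was higher in cKO. Their exact share was not counted.

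**Figure D3:**
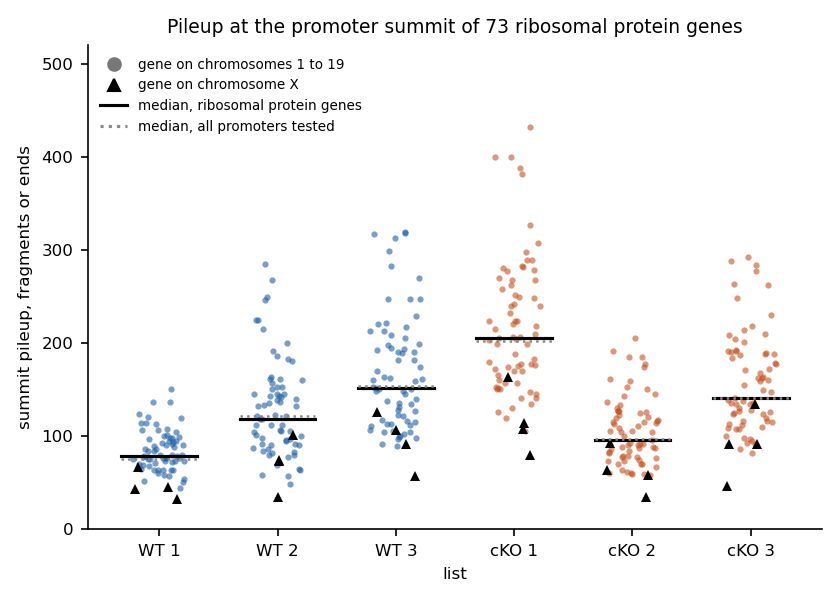
Pileup at the promoter summit (y axis, whole number recovered from the deposited columns) of 73 ribosomal protein genes in each list; black lines are their medians, dotted lines the medians over all promoters tested, and triangles the 4 genes on chromosome X. Medians ran from 79 in WT 1 to 205 in cKO 1 and lay close to the dotted lines in every list.

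By median pileup, the 4 genes on chromosome X, Rpl10, Rpl36a, Rpl39 and Rps4x, had lower summits than the others. Their median pileup was 44.0, 73.5 and 99.5 in WT and 111, 61.0 and 91.0 in cKO, beside 80, 122 and 159 in WT and 207, 104 and 150 in cKO for the genes on chromosomes 1 to 19. Their local background was lower as well, at 3.74, 4.64 and 6.22 in WT and 9.74, 4.11 and 8.21 in cKO, so their median percentile of 85.4 was close to the 87.7 of the other genes. Single genes overlapped: Rpl10 had a mean pileup of 114 over the lists, above the 75.8 of Rpl6 on chromosome 5. Promoters on chromosome X and on the other chromosomes were not compared over all genes. Rps4x had the lowest pileup of the 73 in every list, at 32, 35 and 57 in WT and 80, 34 and 46 in cKO. The value of 32 has a 95% exact Poisson interval of 21.9 to 45.2, which covers counting error only. Rps19 had the highest mean pileup, at 137, 285 and 319 in WT and 432, 192 and 277 in cKO, and the interval of 432 was 392 to 475.

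The width of a promoter peak was in the lists and is independent of the choice of genes. Median widths of the 73 were 1031, 1044 and 1121 bp in WT and 1158, 1076 and 1165 bp in cKO, beside 1091, 1093 and 1159 bp in WT and 1228, 1102 and 1221 bp in cKO over all promoters. The median log2 difference was 0.10, beside 0.07 over all, and 59 of 73 were above 0 (80.8%, beside 78.0%). After centring each list on its median width it was 0.01. With limma, 5 of 9777 promoters had an adjusted p under 0.05 (0.0511%; 638 unadjusted), and of the 73, 0 passed and 6 had an unadjusted p under 0.05, all wider in cKO. Every cKO peak was wider than every WT peak in 15 genes (20.5%, beside 11.9% of all), and narrower in 0 (beside 0.716%).

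Rps12 had the largest gain, with 1091, 1241 and 1224 bp in WT and 1346, 1685 and 1901 bp in cKO. It differed by 0.46 on the log2 scale (SE 0.135, limma adjusted p = 0.707). Rpl39, a small protein lining the exit tunnel, had 863, 1148 and 1263 bp in WT and 1400, 1482 and 1551 bp in cKO, a difference of 0.45 (SE 0.146, limma adjusted p = 0.753). Rpl6 had 772, 755 and 751 bp in WT and 1035, 1064 and 875 bp in cKO, a difference of 0.38 (SE 0.101, limma adjusted p = 0.690). In all 3 genes the groups did not overlap, and none passed the adjusted threshold.
The largest losses were smaller than their spread. Rpl8 differed by -0.15 (SE 0.171), with 879, 871 and 1020 bp in WT and 1062, 749 and 718 bp in cKO. Rpl3 differed by -0.10 (SE 0.160) and Rpl31 by -0.10 (SE 0.116), both with overlapping groups. Rpl3 and Rpl31 changed direction when 1 list was left out. Over the 73 genes, rho between mean width and mean percentile was 0.12.

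**Figure D4:**
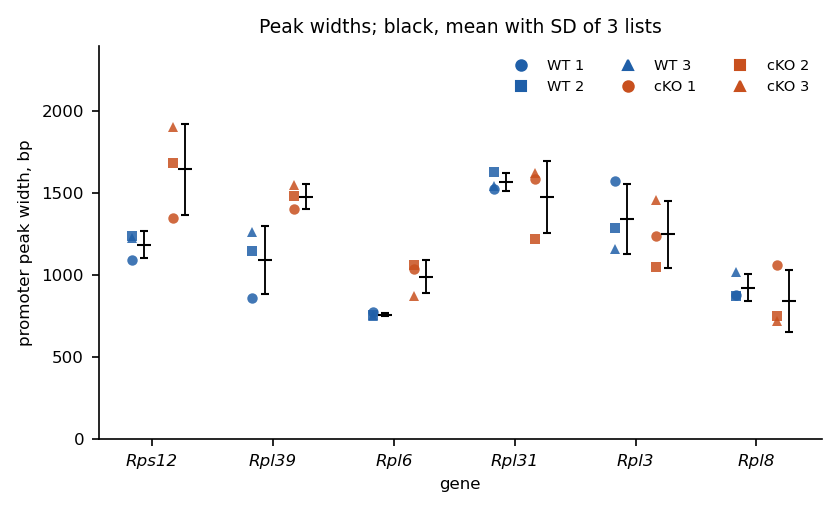
Width of the promoter peak in bp (y axis) in each list for the 3 genes with the largest gains, Rps12, Rpl39 and Rpl6, and the 3 with the largest losses, Rpl31, Rpl3 and Rpl8; black bars are the mean and SD of 3 lists. The gains separated the genotypes, from at most 1241 bp in WT to at least 1346 bp in cKO for Rps12, and the losses overlapped.

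Summits lay close to the start of the gene. The median position of the 73 summits was -27, -16 and -12 bp in WT and -2, -19 and -11 bp in cKO, where negative is upstream of the TSS, beside -39, -38 and -32 bp in WT and -23, -33 and -30 bp in cKO over all promoters. The mean summit of 60 of 73 genes (82.2%, beside 64.5% of all promoters) was within 100 bp of that TSS. Closeness to it was partly set by this choice and by the promoter window, for these genes and for all promoters. Within a gene the summit wandered between lists: the median range over 6 lists was 110 bp, beside 120 bp over all, and only 4 genes kept it within 20 bp. Rps3 held it at -25 bp in every list.

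In limma's fit of summit positions, 28 of 9777 promoters had an adjusted p under 0.05 (0.286%; 442 unadjusted), and 1 of the 73 passed. This was Rps27a, which encodes ubiquitin fused to a small subunit protein, on chromosome 11 between 29545846 and 29548109 on the - strand. Its summit was at -24, -75 and -27 bp in WT and at 144, 148 and 149 bp in cKO, measured from the TSS at 29548109. The groups were far apart and the cKO values were within 5 bp of each other. The difference was 189 bp (SE 16.5, limma adjusted p = 0.0485). In each list a single peak spanned both positions, from -384 bp or further upstream to at least 587 bp into the gene, and further TSSs of Rps27a are annotated at 218, 227, 249 and 1438 bp. The summit pileup at Rps27a was 98, 123 and 162 in WT and 203, 106 and 210 in cKO, with a centred log2 difference of 0.08 (SE 0.148, limma adjusted p = 0.979), and the percentile differed by -0.98 points (SE 1.54). The height of the peak thus did not pass a test where the place of its maximum did.
The call for Rps27a was near the threshold. It was lost when any of WT 1, WT 3, cKO 1, cKO 2 or cKO 3 was left out, with limma adjusted p from 0.0621 to 0.139, with a window of 500 bp on both sides of the TSS (0.0576), and when any base of the peak over a TSS was taken (0.0599). With the replicate number as a block the limma adjusted p was 0.771. The difference stayed between 172 and 198 bp without any 1 list.

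**Figure D5:**
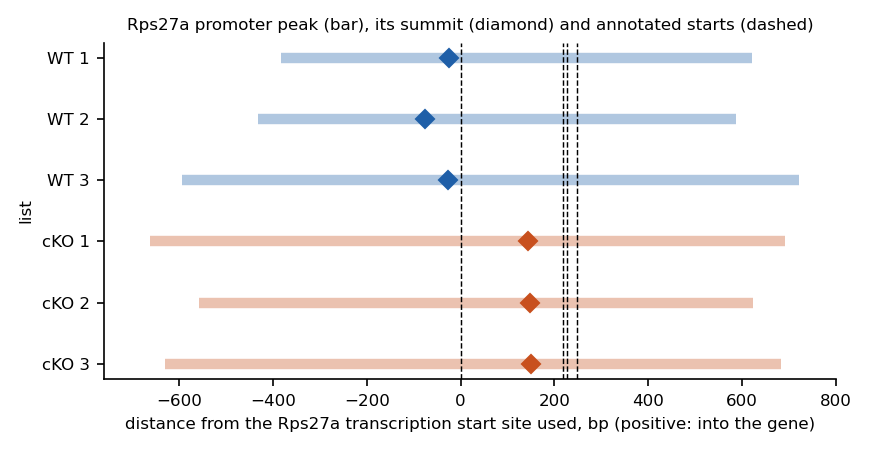
Rps27a promoter peak in each list: the bar is the extent of the called peak, the diamond its summit and dashed lines the annotated TSSs, by distance in bp from the TSS used (x axis, positive into the gene). The 3 WT summits lay upstream of the first TSS and the 3 cKO summits between it and the next TSSs, within peaks of similar extent.

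The summits of 6 genes, Rps27a included, were further downstream in every cKO list than in every WT list (8.22%, beside 4.61% of all), and that of 1 gene further upstream (1.37%, beside 3.71%). Rps27l had its summit at -172, -50 and -45 bp in WT and -18, -19 and 6 bp in cKO. Rps10 had it at -110, -52 and -113 bp in WT and -24, -51 and -24 bp in cKO. Rpl36a, on chromosome X, had it at -83, -8 and -8 bp in WT and 34, 37 and 35 bp in cKO. These shifts did not pass the adjusted threshold.

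Some promoters serve 2 genes. In 11 of the 73 (15.1%, beside 18.1% of all promoters) the peak was also the promoter peak of another protein-coding gene in all 6 lists, such as Rpl7a with Med22, Rps18 with Vps52 and Rps28 with Ndufa7. Their values cannot be told apart from those of the neighbour.

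Other genes of the ribosome were placed in the same way. Fau, a ubiquitin-like fusion with a small subunit protein, was at the percentiles 71.0, 65.1 and 57.6 in WT and 46.7, 70.2 and 49.0 in cKO. Rack1, the scaffold protein on the small subunit, was at 84.8, 80.3 and 86.3 in WT and 81.8, 83.2 and 88.4 in cKO. The groups overlapped in both.
Of 22 translation factor genes, several with TOP tracts of their own, 19 (86.4%) had a promoter peak in every list, as did 34 of 39 ribosome biogenesis genes (87.2%), 65 of 78 mitochondrial ribosomal protein genes (83.3%) and 65 of 87 genes of the respiratory complexes (74.7%), beside 85.9% of the cytoplasmic ribosomal protein genes. None of these was called in the fit of ranks or of widths, and by summit position 1 gene of the respiratory complexes passed and 0 of the other lists. Their median differences in percentile were -2.44 for translation factors, -0.67 for ribosome biogenesis, 0.05 for the mitochondrial ribosome and -0.78 for the respiratory complexes, beside -2.68 for the cytoplasmic ribosomal proteins. The median percentile of the mitochondrial ribosomal promoters was 94.0 beside 86.9.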

How the data were processed

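ATAC-seq was done on crypt cells from 3 WT and 3 cKO samples. Per the study's methods, the authors ran the nf-core ATAC-seq pipeline: Trim Galore, BWA alignment to GRCm38, filtering, removal of blacklisted regions and narrow peak calling by MACS2, sample by sample, with no control library. The submitters' processing notes name MACS2, bedtools and GRCm38. The authors deposited, per peak, a fold ratio over local background, −log10 p, −log10 q and an integer score; lists hold no read totals, and the lowest −log10 q was 1.30. The lists differed in length and summit pileup, and the part of depth in fold and width was not tested.

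From these, the percentile of fold, log2 width and summit position of one promoter peak per gene were fitted with limma 3.58.1 (R 4.3.3), with Benjamini-Hochberg adjustment over 9777 promoters and a threshold of 0.05. The code was tested on simulated data. Pileups were solved from the fold and p columns. Python 3.11.15, numpy 2.4.6, pandas 2.3.3 and scipy 1.17.1 did the rest. Motif matching used the RefSeq start nearest the TSS of the peak tables, within 1000 bp.

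The genes and lists were chosen with earlier results of these data known. Genes were named if past a threshold, among the 5 largest rises or falls of percentile, the 3 largest gains or losses of width, the 5 highest or lowest mean percentiles, absent from a list, or preset for their role; Rps26, Rps20, Rpl37a, Rpl34, Rpl36a and the genes that share a peak were named after their values were seen. Some genes that this rule takes in are not reported here.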

Additional observations from a re-analysis of the deposited data

How the results depend on the processing

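In all, 24 results were recomputed 393 times under other settings, and 358 kept their direction and their side of the threshold or stayed within the spread between lists. The count of 73 genes with a promoter peak in every list ranged from 71 to 81. The median rank difference of the ribosomal protein promoters moved from -2.68 to -4.58 points with lists of equal length, to -3.34 when ranked among the promoter peaks tested, to 0.31 when ranked by −log10 q, to -0.0398 on the centred log2 fold and to 0.00396 on the centred log2 pileup, which also called 3 promoters and gave Rps4x -0.000184; the last setting was chosen after seeing the data. Without any one replicate the median ran from -3.72 to -1.55 and the promoters called by rank from 0 to 1. The median over all promoters moved as well, to -2.89 with lists of equal length and to 0.52 when ranked by −log10 q. The promoters called by width numbered 3 with a window of 500 bp on both sides of the TSS, and the median log2 width difference was 0.0137 after centring. Leaving out replicates gave 2 to 28 calls by width (2 without WT replicate 2, 3 without cKO replicate 1, 14 without WT replicate 3 and 28 without cKO replicate 2), 39 to 98 by summit position (more than 1.5 times 28 without any but cKO replicate 3) and a median summit shift of 3.33 to 16.7 bp. The log2 width difference of Rpl3 ran from -0.223 to 0.0189, above 0 without WT replicate 1 or cKO replicate 2, and that of Rpl31 from -0.169 to 0.0342, above 0 without cKO replicate 2. The causes were not tested.

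The labels give both genotypes the replicate numbers 1 to 3, and whether these pair the samples is not given in the sources used here. Same-numbered lists did not deviate together from their genotype means (r = -0.35, -0.05 and 0.14 for rank). With 3 lists per genotype that differ in depth, these values cannot decide whether the samples were paired. With the replicate number as a block the fits called 0 promoters by rank, 0 by width and 6 by summit position, and Rps27a had a limma adjusted p of 0.771.

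With 3 lists per genotype and no read totals, precision differed by gene: the SE of the percentile difference was 0.663 points for Rps29 and 9.18 for Rpl8, with a median of 3.56 points over the 73 promoters.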
